A study of Mus musculus with 2 samples.

Results

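TOBF1 binding was examined at 6 genes of the FGF-ERK pathway in mouse embryonic stem (ES) cells: the feedback inhibitor genes Dusp6, Spry2 and Spry4, the Ets factor genes Etv4 and Etv5, and the receptor gene Fgfr1. They were chosen by name, with earlier results of these data known. A peak was counted for a gene when its midpoint lay inside the gene or at most 50 kb from either end. Together the 6 genes held 26 of the 12181 peaks of the deposited list. The library was a chromatin immunoprecipitation (ChIP) from R1/E ES cells, a mouse line kept in serum and LIF, in which a copy of TOBF1 tagged on a bacterial artificial chromosome (BAC) was pulled down with an antibody against GFP after formaldehyde and DSG crosslinking. The series has 1 such library and 1 input from cells labelled with the same construct, made without antibody; only the ChIP library's peak list was used. TOBF1 is named in the series title as the product of A830080D01Rik. The BAC adds a copy of the gene to those of the cell, and cells without the tag were not analysed here.

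In this pathway an FGF ligand activates its receptor, a tyrosine kinase, and the signal passes through Ras and a kinase cascade to ERK. Active ERK raises transcription of its own inhibitors, among them Sprouty proteins and the phosphatase Dusp6, and of the Ets factors Etv4 and Etv5. In ES cells, Fgf4 acting through ERK is known for preparing cells to leave the undifferentiated state. LIF, present in this medium, holds them in it.

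Of the 6 genes, 5 had at least 1 peak within 50 kb, against 42% of the 21883 protein-coding genes in the annotation. The 5 with a peak all had 2 or more, which 17.8% of protein-coding genes reached. Spry2 had 10 peaks, Etv5 had 8, Dusp6 and Spry4 had 3 each, Etv4 had 2 and Fgfr1 had 0. With 1 library no value here has a replicate error, so neighbours in this order cannot be told apart by a test, and shares of all genes are given as a description. Sequencing depth is unknown.

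**Figure D1:**
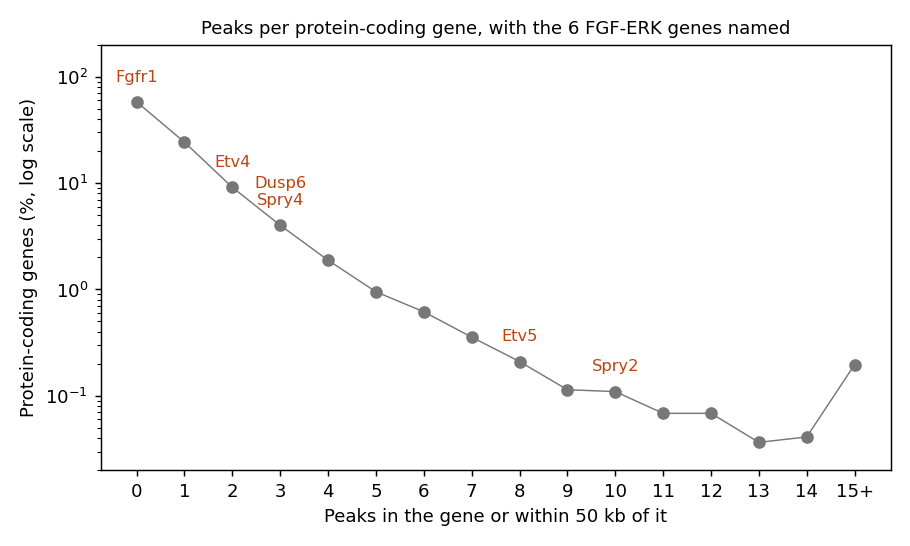
Share of the 21883 protein-coding genes (vertical axis, percent, log scale) with each number of TOBF1 peaks in the gene or within 50 kb (horizontal axis, 15 or more pooled), with the 6 FGF-ERK genes written at their number. Spry2 with 10 and Etv5 with 8 lie in the sparse right part, and Fgfr1 with 0 shares its place with 58% of genes.

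The letters before the gene start are shown for Dusp6, Spry2 and Etv5, the 3 genes with an entry in the promoter table used here, to set a start under a peak beside starts without one. Each line gives the 250 bases before the annotated start, 5′ to 3′ on the gene's strand, from RefSeq on GRCm38.p6, the assembly of mm10. For Etv5 the outer of its 2 annotated starts, at the gene's upper end, is shown. Capitals mark GGAA or its reverse complement TTCC, the core letters of Ets factor sites, and CCAAT or its reverse complement ATTGG, the letters of the CCAAT box; both strands were searched.
Dusp6 promoter: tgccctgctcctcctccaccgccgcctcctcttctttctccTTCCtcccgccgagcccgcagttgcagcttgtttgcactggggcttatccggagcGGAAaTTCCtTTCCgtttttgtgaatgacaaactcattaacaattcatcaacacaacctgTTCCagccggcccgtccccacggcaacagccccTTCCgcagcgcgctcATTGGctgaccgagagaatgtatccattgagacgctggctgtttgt
Spry2 promoter: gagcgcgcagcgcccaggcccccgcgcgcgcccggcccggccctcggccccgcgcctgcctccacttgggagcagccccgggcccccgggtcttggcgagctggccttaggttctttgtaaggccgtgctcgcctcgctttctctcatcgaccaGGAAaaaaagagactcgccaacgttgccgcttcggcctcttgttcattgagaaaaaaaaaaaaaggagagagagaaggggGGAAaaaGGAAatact
Etv5 outer promoter: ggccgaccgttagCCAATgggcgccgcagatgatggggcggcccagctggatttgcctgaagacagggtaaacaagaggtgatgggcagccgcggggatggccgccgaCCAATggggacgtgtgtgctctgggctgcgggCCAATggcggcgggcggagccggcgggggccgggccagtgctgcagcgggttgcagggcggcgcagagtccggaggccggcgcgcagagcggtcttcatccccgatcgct

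The Dusp6 window (chr10:99262981-99263230, plus strand) lay under a TOBF1 peak along all 250 bases. No base of the Spry2 window (chr14:105896820-105897069, minus strand) or of either Etv5 window (outer chr16:22439571-22439820 and inner chr16:22438369-22438618, minus strand) lay under one. Of the 32851 promoter windows in the table, 187 (0.569%) were touched by a peak. GGAA and CCAAT were added to the search after the letters had been seen, so their shares below only describe these windows. The Dusp6 letters held GGAA or TTCC 6 times, a number that 8.69% of all windows reached. Such letters occurred at least once in 93.4% of windows. The Spry2 letters held them 3 times, the outer Etv5 letters 0 times and the inner Etv5 letters, not printed, 4 times. The CCAAT letters stood once in the Dusp6 window, and 33.8% of windows had them at least once. They stood 3 times in the outer Etv5 window, which 2.79% reached, once in the inner one, and nowhere in the Spry2 window. None of the 9 longer motifs searched matched in these 4 windows. Those were CCGGAAG (in 6.91% of all windows) and CAGGAAG (10.8%) for Ets factors, TGANTCA for AP-1 (6.75%), TGACGTC for the cAMP response element (2.78%), the E-box CACGTG (6.02%), the octamer letters ATGCAAA (4.12%), CATTGTT for Sox factors (3.29%), AAGGTCA for Esrrb (4.08%) and GGGCGGG for Klf and Sp factors (23.4%). The first 2 contain the letters GGAA. The Dusp6 window was 56.4% G or C with 16 CpG, against 62.4% with 23 CpG in the Spry2 window, 71.2% with 27 CpG in the outer and 62% with 18 CpG in the inner Etv5 window; the median window had 52.4% and 6 CpG.

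Among the inhibitors, Dusp6 encodes a phosphatase that switches off ERK in the cytoplasm. Its gene (chr10:99263231-99267489) had 3 peaks, and the peak over the promoter was the weakest of them. That peak (chr10:99262937-99263231) was centred 147 bp before the start and had a score of 5.11. The score is the authors' value from the peak caller, taken as a −log10 q-value, and the list has a median of 9.97 and quartiles of 5.93 and 18.99. Another peak lay inside the gene, 2.29 kb after the start (chr10:99265414-99265624, score 11.4), and the third lay 25.9 kb past the end of the gene (chr10:99293246-99293481, score 8.11). The promoter peak was thus below the lower quartile, while the intragenic one was above the median. No other protein-coding gene of the annotation reached into the window, and the nearest one to these peaks, Poc1b, was 65.01 kb or more from each of them. At least 3 peaks were counted at 8.66% of protein-coding genes, and 3.15% had at least as many per 100 kb of window (2.88 at Dusp6).

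Spry2 encodes a Sprouty protein, an inhibitor of receptor tyrosine kinase signalling upstream of ERK. Its short gene (chr14:105891947-105896819, 4.87 kb) held no peak itself, and its 10 peaks fell mainly into a group on either side. The group past the 3′ end had 4 peaks over 9.92 kb (chr14:105851435-105861355), and the group before the start had 4 peaks over 2.91 kb (chr14:105920283-105923189). The peaks past the 3′ end lay between 30.8 and 40.3 kb from the gene and had scores of 22.5, 13.3, 20.6 and 5.59, from the far side inwards. The peaks before the start lay between 23.5 and 26.3 kb from it and had scores of 2.88, 5.04, 15.6 and 6.32, from the near side outwards. The far group past the 3′ end was the stronger, with 3 of 4 peaks above the list's median, against 1 of 4 in the group before the start. The remaining peaks lay closest to the gene and were weak, 1 of them 1.89 kb past the 3′ end (score 3.05) and the other 4.14 kb before the start (score 5.79). At least 10 peaks were found at 114 protein-coding genes (0.521%), and 40 of those (0.183% of all) had none inside the gene. The number 10 and the empty gene were taken from Spry2 itself, so these shares only describe its pattern. The density of 9.54 peaks per 100 kb was reached by 0.388% of genes. Peak height was less unusual, since 13.0% of genes had a peak at least as high as 22.5 within 50 kb. No other protein-coding gene of the annotation lay within the window. The count rests on the wide window and on separate calls of close peaks: 2 peaks lay within 10 kb of the gene, and merging peaks within 1 kb of each other left 6 of the 10.

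Spry4, the other Sprouty gene of the set (chr18:38586247-38601347), had 3 peaks spread widely. The one next to the gene, 0.85 kb outside its lower end (the end with the lower coordinate), was the weakest (chr18:38585326-38585471, score 3.02). The others lay 12.3 kb below the lower end (chr18:38573845-38574039, score 11.4) and 27.6 kb above the upper end (chr18:38628845-38629058, score 16.7). The last one, the strongest, lay inside the neighbouring gene Arhgap26, so only 2 of the 3 had Spry4 as their nearest gene. The next peak above lay 302.7 kb from Spry4 with a score of 24.7, inside Fgf1, an FGF ligand gene on the same chromosome that Arhgap26 also spans there. The strand of Spry4, Etv4 and Fgfr1 is not in the tables used here, so their ends are given as lower and upper.

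**Figure D2:**
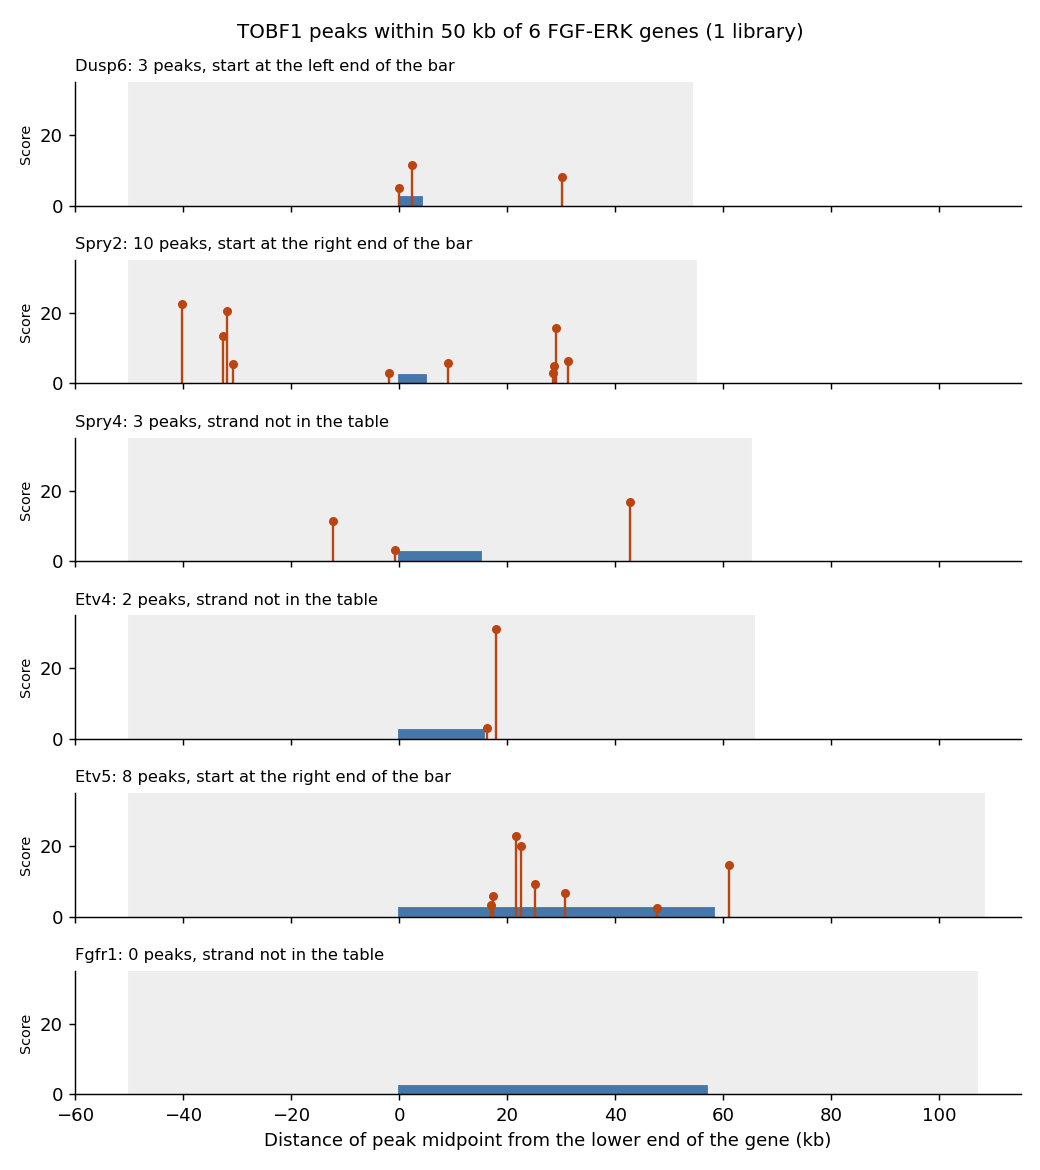
TOBF1 peaks at the 6 genes, 1 panel per gene: the horizontal axis is the distance of each peak's midpoint from the lower end of the gene in kb, the vertical axis the authors' score, the blue bar the gene and the grey field the 50 kb window. Spry2 shows a group of 4 peaks on each side of an empty gene, Etv5 a group of 6 inside the gene, Etv4 its highest peak of 31.1 just beyond the upper end, and Fgfr1 none.

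Etv4 and Etv5 belong with Etv1 to the Pea3 group of Ets factors, transcription factors that act at the end of the pathway. Etv4 (chr11:101769747-101785310) had 2 peaks, both just outside the upper end. The nearer one, 0.69 kb outside, had a score of 3.10 (chr11:101785900-101786092), and the other, 2.38 kb outside, had a score of 31.1 (chr11:101787571-101787811), the highest of the 26. In the whole list 12.6% of peaks scored as high, and 8.37% of protein-coding genes had a peak as high within 50 kb. Such a number of peaks or more was found at 17.8% of genes, so its count is less uncommon than those of Spry2 or Etv5. Dhx8, a splicing helicase gene, was the only other protein-coding gene of the annotation in the window, 18.6 kb or more from these peaks.

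Etv5 (chr16:22381313-22439570, 58.3 kb) had 7 of its 8 peaks inside the gene. That number, taken from Etv5 itself, was reached by 0.219% of protein-coding genes of any length. Genes of like length were not compared for it. Of the 7 peaks, 6 formed a group of 13.7 kb in the middle and 3′ part of the gene (chr16:22398267-22412003), between 27.7 and 41.2 kb after the start. From the 3′ side of the group towards the gene start, their scores were 3.32, 5.72, 22.8, 20.04, 9.17 and 6.82. Height was thus concentrated in a pair of adjacent peaks, which were also the widest of the 26 at 479 and 444 bp. A seventh intragenic peak lay alone 10.5 kb after the start (score 2.53, the lowest of the 26). The peak outside the gene lay 2.80 kb before the start (chr16:22442233-22442509, score 14.6). At least 8 peaks within 50 kb were found at 0.845% of genes, and the density, 5.06 per 100 kb, was reached by 1.02%. The intragenic group meets the definition of a dense region, 6 or more peaks at gaps of up to 10 kb, and 2 peaks remained at Etv5 without it. Regions of repeated sequence or of high signal with any antibody were not filtered out here, and their part in this group was not tested. All 8 peaks had Etv5 as their nearest protein-coding gene; Dgkg, the other gene in the window, was 24.2 kb or more away.

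Fgfr1 encodes the main FGF receptor of ES cells. No peak lay in or within 50 kb of the gene (chr8:25518759-25575718, 57.0 kb), as was the case for 58% of all protein-coding genes and for 51.6% of the 1085 genes of 50 to 65 kb. Peaks began just beyond the window on the lower side, at 56.1 kb (chr8:25462541-25462735, score 10.8), 63.5 kb (score 55.2) and 80.6 kb (score 7.76). The one at 63.5 kb scored higher than any of the 26 counted peaks, and all 3 lay nearer to another gene of the annotation, Gm39147. On the upper side the next peak was 488.2 kb away. A list of called peaks does not show signal under the caller's threshold, so an absent peak is not a measure of absent binding. At the edge of the window, the farthest peak counted at any of the 6 genes was the one 40.3 kb past Spry2, and the nearest not counted was the one at 56.1 kb from Fgfr1, with the next at Spry2, 62.8 kb past the gene (score 8.87). Another peak past Spry2 lay at 67.6 kb (score 3.50). Beyond the window, Dusp6 had a peak at 86.2 kb (score 23.4), Etv4 at 87.6 kb (score 47.4) and Etv5 at 91.5 kb (score 20.5).

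Peaks next to the gene ends were the weak ones at these genes. Within 1 kb of a gene end, 3 of the 6 genes had a peak, namely Dusp6, Spry4 and Etv4, against 2.67% of protein-coding genes. Their scores of 5.11, 3.02 and 3.10 were each the lowest of their own gene and each under the lower quartile of the list. A gene-end peak was the lowest of its gene at 52.3% of the 174 protein-coding genes that had 2 or 3 peaks within 50 kb and exactly 1 of them at an end (56.4% of those with 2 peaks and 43.9% of those with 3), so this order is common in the list. With peaks at or above the list's median score only, 0 of the 6 genes had a peak at an end, against 0.932% of protein-coding genes, a share at which none among 6 genes is no result about them. Such a peak lay within 50 kb of 5 of the 6, against 26.9% of protein-coding genes. Expression was not measured in this series, and signal that active genes can give with any antibody was not tested.

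Over the 26 peaks, 8 lay inside a gene of the set (30.8%), 7 outside it within 10 kb (26.9%) and 11 between 10 and 50 kb (42.3%). The 9009 peaks within 50 kb of any protein-coding gene divided into 55.8%, 21.5% and 22.7% by distance to their nearest gene. Etv5 supplied 7 of the 8 intragenic peaks of the set and Spry2 supplied 8 of the 11 distant ones. The median score of the 26 peaks was 7.46, with 11 at or above the list's median, against a median of 9.87 over the 9009 peaks. The median width was 218.5 bp, against 215 bp. Of the 26, 18 (69.2%) had another peak at a gap of up to 10 kb, against 33.1% of the 9009, and 14 of those 18 belonged to the groups at Spry2 and Etv5. The 6 genes lie on different chromosomes, so no peak was counted for more than 1 of them.

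The set was then placed in a wider list of 75 FGF-ERK pathway genes, ordered by role and likewise chosen with earlier results known. Of these, 45 (60%) had a peak within 50 kb, or 40 of 69 (58.0%) without the 6 genes, against 42% of protein-coding genes. Within 10 kb the list had 32 (42.7%), against 21.6%. Neither share was tested, and genes that lie close together share peaks. With each peak counted only for its nearest gene, the count of 45 fell to 33, and no share of all genes is given at that setting. By role, a peak within 50 kb was found at 7 of 9 ligands, 2 of 5 receptors, 7 of 9 adaptors and exchange factors, 7 of 14 genes of Ras and the kinase cascade, 10 of 18 feedback inhibitors, 8 of 12 Ets factors and 4 of 8 early target genes. Without the 6 genes, it was found at 7 of 15 feedback inhibitors (46.7%), near the 42% of all protein-coding genes. The same count was 6 of 10 for Ets factors and 2 of 4 for receptors. Map2k1, which encodes a kinase of ERK, had 2 peaks with a highest score of 8.63, and its relative Map2k2 had none.

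**Figure D3:**
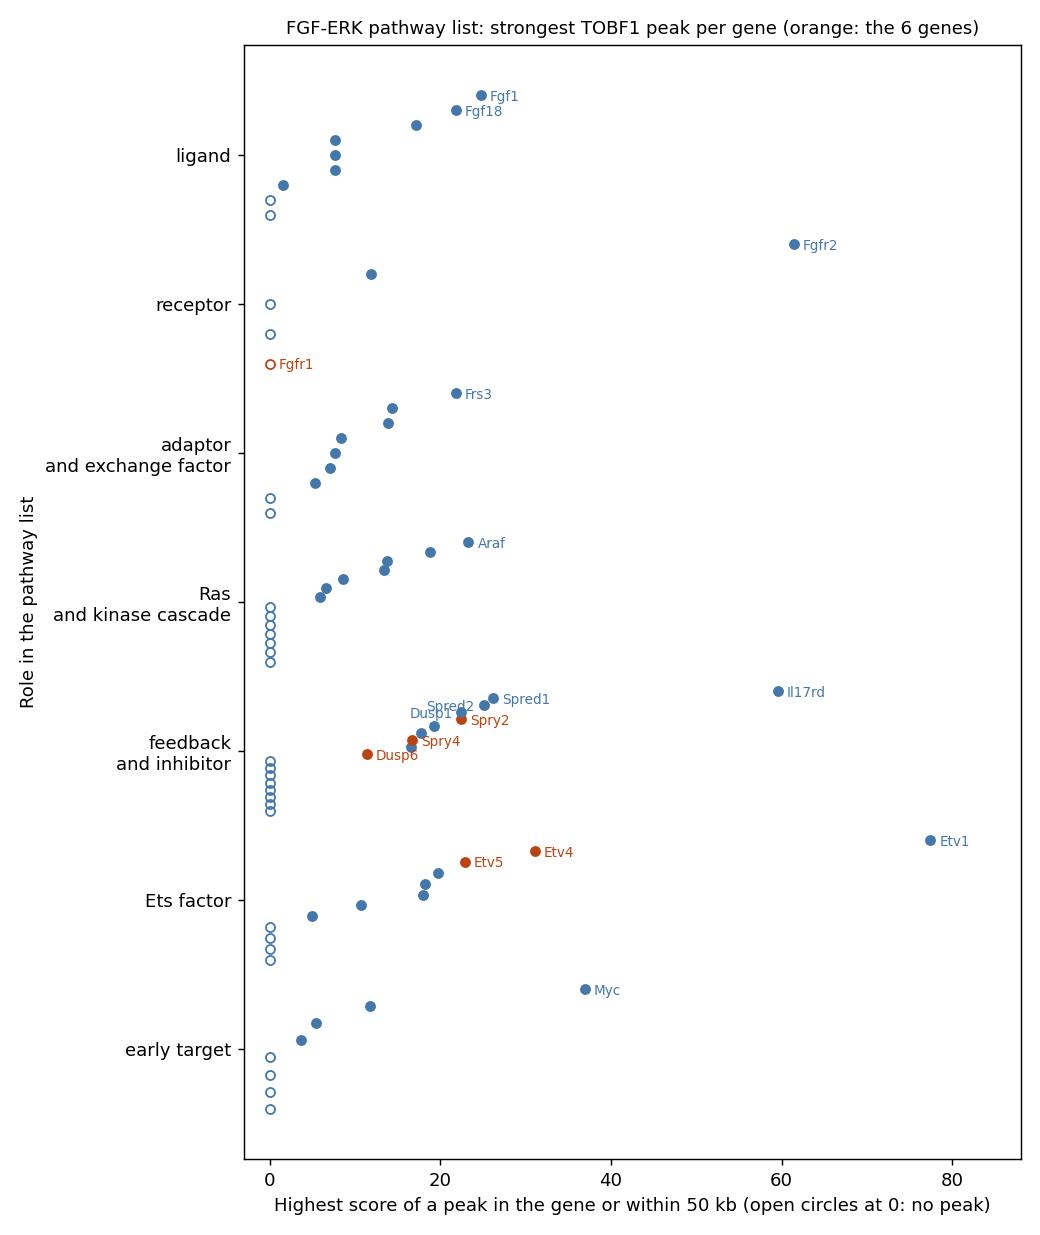
Highest score of any TOBF1 peak in the gene or within 50 kb (horizontal axis) for the 75 genes of the FGF-ERK list, grouped by role (vertical axis), with open circles at 0 for genes without a peak and orange for the 6 genes. Etv1 at 77.4, Fgfr2 at 61.4 and Il17rd at 59.6 lie to the right of all 6, of which Etv4 at 31.1 is the highest and Fgfr1 has no peak.

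The closest relatives of the 6 genes had between 0 and 2 peaks each within 50 kb. Etv1, the third Pea3 gene, had 2 peaks, 1 of them 0.60 kb below its lower end, where its outer start lies (score 12.8). The other lay inside the gene 4.46 kb from that end (chr12:38784344-38784735, score 77.4), the highest of the pathway list. Measured from the outer gene ends, Etv1 had, like Etv4, a weaker peak nearest an end beside a stronger one a few kilobases off, at a higher level of both. Etv1 also has an inner annotated start, directly after the promoter window chr12:38783461-38783710 (plus strand). The stronger peak lay less than 1 kb after that inner start, so the likeness holds for the outer ends only. Spry1 had a single peak 12.7 kb above the upper end (score 19.2), and Spry3 had none, against 10 at Spry2 and 3 at Spry4. The annotation places Spry3 at chrX:101352-110912, near the lower tip of the chromosome. Whether any peak could be called there was not checked, so the lack of a peak is no result about Spry3. Among ERK phosphatase genes related to Dusp6, Dusp7 and Dusp9 had no peak within 50 kb. Of the other receptors, Fgfr2 had a peak inside the gene 2.08 kb after its start (chr7:130264566-130264891, score 61.4). Fgfr4 had 1 that lay 21.5 kb outside (score 11.8) and Fgfr3 had none.

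Other inhibitor genes with high peaks were Il17rd, Spred1, Spred2 and Dusp1. Il17rd, also called Sef, encodes a membrane inhibitor of FGF signalling and had 3 peaks inside the gene with scores of 4.43, 5.87 and 59.6. Spred1, a Sprouty-related inhibitor gene, had a peak just over 1 kb below its lower end (1.003 kb, score 26.2) and others with scores of 5.29 and 15.7. Spred2 had a peak 6.28 kb below its lower end (score 25.1) and 1 inside the gene (4.33). Dusp1, an immediate early phosphatase gene, had peaks 2.74 kb below (score 6.38), 3.02 kb above (15.7) and 39.5 kb above (22.5).

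Among the ligands, Fgf4 had a peak inside the gene 0.88 kb from its 3′ end (chr7:144864287-144864452, score 7.61). The same peak was counted for its neighbours Fgf3 and Fgf15, so these 3 ligand genes rest on 2 distinct peaks, the other being one inside Fgf15 (score 5.86). Fgf18 had 15 peaks, more than any of the 6 genes, but 13 of them formed 1 run that reached into the neighbouring gene Npm1, which encodes a nucleolar protein, and the highest of them (21.9) lay 0.85 kb from Npm1 and 4.25 kb from Fgf18. Fgf1 had 2 peaks, 1 inside the gene (score 24.7) and 1 that lay 43.4 kb above it (score 11.3), and each lay inside Arhgap26. The peak counted for the kinase gene Araf (score 23.3) lay inside Syn1. Of the early targets, Myc had 4 peaks, of which those 6.21 kb below (score 37.0) and 20.6 kb above the gene (35.8) were the strongest, and Ier2 had a weak peak 0.08 kb from an end (score 1.86) and another at 10.9 kb (3.71).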

How the data were processed

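Peaks of 1 TOBF1 ChIP library were analysed. Per the submitters' processing notes, the tools were cutadapt, Bowtie2, bedtools and MACS2 and the build mm10. Their versions and settings, and whether the input was the control, are not stated there. The deposited score, 1 value per peak, was taken as a −log10 q-value, since its minimum, 1.30, is what a q threshold of 0.05 would leave. It changes with sequencing depth and was therefore used only within the list.

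Genes came from a RefSeq table of GRCm38.p6 without strand or exons, and 12012 peaks on chromosomes were compared with it. A RefSeq promoter table gave strand and letters for 3 of the 6 genes. Peaks were not sorted into exons and introns. No test was made: counts and percentiles over all protein-coding genes are descriptions. The 6 genes, the pathway list of 75 genes and the motifs were chosen with earlier results of these data known, GGAA and CCAAT after seeing the letters. Named pathway genes were the relatives of the 6, those with a gene-end peak (1 kb) and the 10 with the highest scores; Map2k1, Map2k2 and neighbouring genes were named after their values were seen, and some genes of the list are not reported here. Counting was tested on simulated data. Python 3.11.15, NumPy 2.4.6, pandas 2.3.3 and matplotlib 3.10.9 were used.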

Additional observations from a re-analysis of the deposited data

How the results depend on the processing

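Alternatives changed the window, the midpoint rule, the score threshold, close peaks (merged within 1 kb), dense regions (left out) and the assignment to the nearest gene. The number of the 6 genes with a peak was 5 under every one of them except the window of 100 kb, where it was 6 because peaks beside Fgfr1 came in. The total of 26 peaks fell to 15 with a window of 10 kb, to 16 with 20 kb and to 11 when peaks under the median score were dropped; it stayed between 20 and 34 under the others. The 3 genes with a peak at an end became 1 within 500 bp, 5 within 5 kb, 0 without peaks under the median score, and 1 at transcription starts only, where a start was known for 3 of the 6 genes. The pathway count of 45 stayed between 31 and 58 under the alternatives run; leaving the 6 genes out of the list, chosen after seeing the data, gave 40. The share of all protein-coding genes moves with the setting too, to 21.6% within 10 kb and 26.9% for peaks at or above the median score. No such share is given here for the windows of 20 and 100 kb, the nearest gene or 5 kb from an end. Counts at those settings, also for the 6 genes, thus cannot be set against all genes. The share of all genes with a peak within 50 kb was 42.0%, 39.7% over protein-coding genes of 1 to 100 kb and 38.4% over genes of every type. No paired analysis was possible because each group has 1 library and no test was made. Leaving out a replicate was likewise not possible. Depth is unknown, so weak or missing peaks cannot be weighed against read number.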

Other observations

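Over all genes, the promoter windows touched by a TOBF1 peak held some of the searched letters at higher and others at lower shares than windows in general. The octamer letters ATGCAAA, or their reverse complement TTTGCAT, stood in 21 of the 187 touched windows (11.2%), against 4.12% of all 32851 windows, and AAGGTCA, the letters of the Esrrb site, in 16 (8.56%), against 4.08%. CATTGTT for Sox factors stood in 10 (5.35%), against 3.29%, and TGACGTC for the cAMP response element in 9 (4.81%), against 2.78%. The Ets letters CCGGAAG stood in 15 (8.02%), against 6.91%, and CAGGAAG in 23 (12.3%), against 10.8%. Of the letters added later, GGAA or TTCC stood in 182 (97.3%), against 93.4%, and CCAAT or ATTGG in 76 (40.6%), against 33.8%. The genes of the 187 windows are not broken down here, so whether 1 gene family carries any of these shares was not tested. Other letters were less frequent in the touched windows, among them TGANTCA for AP-1 (3.21%, against 6.75%), GGGCGGG for Klf and Sp factors (19.3%, against 23.4%) and the E-box CACGTG (4.81%, against 6.02%). Windows of 1 gene can overlap and share a peak, and these shares were not tested. The Dusp6 window, which is among the 187, holds the GGAA and CCAAT letters but none of the longer motifs named here.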
